A study of Populus tremula x Populus alba with 3 samples.

Results

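Large-subunit ribosomal protein genes were followed in unopened apical buds of hybrid poplar, in wild type and in RNA interference (RNAi) lines against PtaDML10. The set holds 91 genes of the 2151 in the authors' deposited table of differentially expressed genes, out of 41335 genes counted. A gene is a member if the description of its Arabidopsis match reads "ribosomal" together with "60S" or a word of L and digits, in any case of letters, and the match is not an organelle-genome locus or a methyltransferase. The members were selected on measured values, because the deposited table lists only genes that its authors found to differ between the RNAi lines and wild type. Every value of that contrast below is therefore a description without a test. Poplar genes outside the table carry no description in the files, so unlisted copies of these genes were not analysed here.

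All plants were the INRA clone 717-1B4, a Populus tremula x Populus alba hybrid. They grew for 4 weeks in long days (16 h light, 21 °C), 12 weeks in short days (8 h, 19 °C) and 4 weeks at 4 °C before a return to long days, and 15 apical buds from 15 plants were taken per genotype before visible bud break. There is 1 library of wild type, 1 of the RNAi line KD2 and 1 of the RNAi line KD5, so wild type has no replicate and the RNAi group has n = 2 libraries, each from a different line. The labels do not say what promoter drives the RNAi construct or whether the buds of a genotype were pooled.

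The ribosome makes protein from messenger RNA. Its large (60S) subunit joins amino acids and threads the new chain out through an exit tunnel, and a flexible stalk of acidic P proteins on its flank recruits translation factors. A ribosome needs its proteins in matched amounts, and in plants each is encoded by several near-identical gene copies. Plastids and mitochondria have ribosomes of bacterial type whose proteins are mostly encoded in the nucleus. Growing tissue such as a shoot tip is known for high ribosomal protein mRNA.

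Library totals ran from 4509887 to 6829583 counts, with the most in wild type. The files do not pair PtaDML10 with an identifier. The locus taken for it from outside the files, Potri.010G234400, a pairing that could not be checked here, had 59 counts (wild type), 63 (KD2) and 83 (KD5), so neither library labelled as RNAi lay below wild type there (log2 fold change 0.66, SE 0.31, adjusted p = 0.151 in the quasi-likelihood test of edgeR). Directions below are those of the libraries so labelled. Other listed gene groups moved as well. All 27 listed histone genes and all 10 listed green leaf markers were called lower, with median log2 fold changes of -0.98 and -1.38. Both listed matches of the meristem gene SHOOT MERISTEMLESS and 5 of 5 listed epidermis genes were called lower too. The shares over all genes tested were 8.05% lower and 5.0% higher. The lists of this paragraph hold only genes of the deposited table, which was built from this contrast, so nothing is read from how many were called. Summed levels of the green leaf markers were 5159 CPM (wild type), 2336 CPM (KD2) and 2711 CPM (KD5), where CPM is a gene's count scaled to library size, and none was at 0. The histone sums were 9980, 4835 and 5011 CPM. The 31 listed organelle-genome matches went the other way, with 20 called higher and 1 lower, and summed to 233, 504 and 329 CPM. The part of tissue makeup and RNA quality in the ribosomal protein values was not tested. In a bulk sample, fewer cells of a type and less RNA per cell cannot be told apart.

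Of the 91 members, 85 had less mRNA in both RNAi libraries than in wild type and 6 had more in both. Their median log2 fold change was -0.85, against 0.02 for all 23089 genes tested, where a negative value means lower in the RNAi libraries. All 91 passed the filter on low counts, 85 were called lower and 6 higher (Benjamini-Hochberg adjusted p below 0.05 in edgeR's quasi-likelihood test over all genes). Over all genes tested, 8.05% were called lower and 5.0% higher, and 38.4% lay below wild type in both RNAi libraries. The table was built from this contrast, so nothing is read from the excess among members. Most of the reductions were moderate, with 28 members at least 2-fold lower.

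Together the members took 3.23% of all counts in wild type (exact 95% interval from 3.22 to 3.24), 1.92% in KD2 (1.90 to 1.93) and 2.17% in KD5 (2.16 to 2.19). These intervals cover counting error only. KD2 was the lowest library and wild type the highest. The shares are of the deposited counts and do not depend on a scaling between libraries.

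The name rule gathers proteins of 3 compartments. From what is known of the Arabidopsis matches, 74 members belong to the cytosolic 60S subunit, 10 to the plastid ribosome and 3 to the mitochondrial ribosome. A further 3 match Arabidopsis RPS12, a small-subunit protein whose domain description also reads L7Ae and L30e, and 1 matches ClpS, an adaptor of the plastid Clp protease that is not a ribosomal protein. Thus 87 of 91 fit the label. The cytosolic genes had a median log2 fold change of -0.84, the plastid genes of -1.12, the mitochondrial genes of -0.88 and the remaining genes of -0.73. The difference between compartments was not tested.

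**Figure D1:**
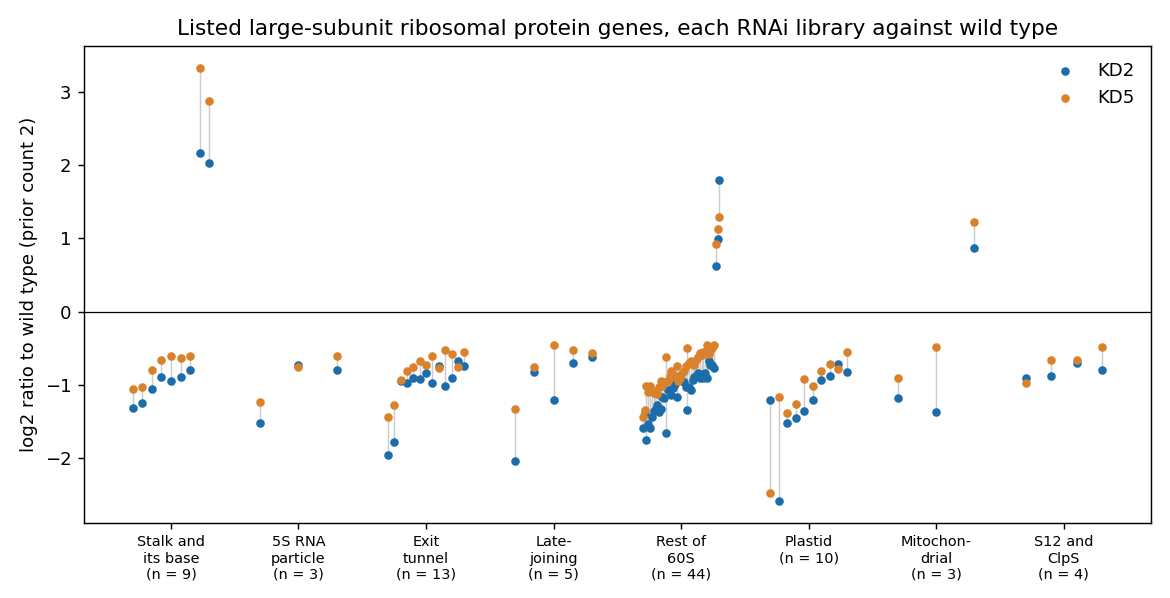
Log2 ratio of KD2 (blue) and of KD5 (orange) to wild type for each of the 91 members, grouped by place in the ribosome; a grey line joins both values of a gene. The 85 lower genes form a band below 0 in every group, and 6 genes lie above 0, of which 5 are cytosolic and 1 is mitochondrial.

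The stalk carried the widest contrast of directions among its genes. Its 5 acidic P protein genes stood lower by similar amounts. Potri.009G146200 had 964 CPM (wild type), 464 CPM (KD2) and 557 CPM (KD5) (log2 fold change -0.92, SE 0.15). For Potri.004G185800 the values were 630, 340 and 397 CPM. The other P protein genes, Potri.009G032600, Potri.012G021700 and Potri.003G010200, had log2 fold changes of -0.70, -0.77 and -0.76. In each of these genes wild type was highest and KD2 lowest.

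The base of the stalk is formed by the protein called L11 in bacteria and RPL12 in eukaryotes, and its 4 listed copies, all matching AT3G53430, did not move together. Potri.T161500 had 394 CPM (wild type), 158 CPM (KD2) and 189 CPM (KD5) (log2 fold change -1.18, SE 0.16). Potri.006G077200 had 518, 218 and 254 CPM (-1.13, SE 0.16). The remaining copies went up from very few reads. Potri.018G145200 had 16 counts (wild type), 62 (KD2) and 144 (KD5), or 2.60, 13.0 and 29.5 CPM (log2 fold change 3.02, SE 0.37). Potri.018G146600 had 3, 15 and 29 counts, so the RNAi level was 9.36 times that of wild type, with an exact 95% counting interval from 3.0 to 47.1.

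In all 4 copies KD5 stood above KD2, and in the 2 with few reads both RNAi libraries lay above wild type. They supplied 19 of the 5627 counts at this Arabidopsis match in wild type, or 0.34% (exact 95% interval from 0.20 to 0.53). In KD2 they supplied 4.12% (3.27 to 5.13) and in KD5 7.40% (6.37 to 8.54). The sum of all 4 copies still stood lower, at 915 CPM (wild type), 392 CPM (KD2) and 479 CPM (KD5). Whether reads of near-identical copies were divided correctly is uncertain, as the labels name no counting program.

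The 5S RNA particle, in which RPL5 and RPL11 hold the smallest ribosomal RNA, had 3 listed genes, all lower. The RPL5 match, Potri.019G099000 (AT5G39740, OLI7), had 551 CPM (wild type), 319 CPM (KD2) and 364 CPM (KD5) (log2 fold change -0.69, SE 0.15). The RPL11 matches are described as L5P, the bacterial name, and carry consecutive identifiers. Potri.006G181600 went from 54.5 CPM in wild type to 18.7 CPM (KD2) and 22.95 CPM (KD5) (-1.39, SE 0.21), while its neighbour Potri.006G181500 went from 89.6 CPM to 54.2 and 52.9 CPM (-0.74, SE 0.18). Of these neighbours, the former was the farther below wild type in both RNAi libraries.

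Proteins that line or surround the exit tunnel gave 13 members, all lower, with a median of -0.78. RPL39 is a very small protein set in the tunnel wall, and one of its copies had the lowest log2 fold change of the 74 cytosolic genes. Its match Potri.006G188500 had 497 CPM (wild type), 127 CPM (KD2) and 184 CPM (KD5) (-1.67, SE 0.16). The second copy, Potri.018G112300, had 320, 93.4 and 132 CPM (-1.50, SE 0.16). Among the counts of all 74 cytosolic genes, the first copy made up 1.47% (wild type), 0.74% (KD2) and 0.93% (KD5), and the second 0.95%, 0.55% and 0.67%. Both copies thus lay lower than the pooled cytosolic genes did.

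RPL19, which reaches across to the small subunit, lay near the tunnel median. Potri.004G078000, the member with the most reads, had 2234 CPM (wild type), 1405 CPM (KD2) and 1317 CPM (KD5) (-0.71, SE 0.13). Its share of the cytosolic counts was 6.60% (wild type), 8.21% (KD2) and 6.68% (KD5). The other RPL19 copies, Potri.015G029500, Potri.012G037500 and Potri.017G140800, had log2 fold changes of -0.83, -0.78 and -0.80, so the 4 copies spanned 0.12 on the log2 scale. RPL17, which lines the tunnel where it narrows, had 3 listed genes. The one with the most reads, Potri.010G060400, had 1002, 601 and 589 CPM (-0.75, SE 0.15). Its copy Potri.012G096600 had the smallest reduction of the tunnel group, at 319, 191 and 217 CPM (-0.64, SE 0.16), and Potri.008G175500 lay at -0.94. RPL35 (described as L29) and RPL31, at the tunnel exit, lay between -0.89 and -0.75, and RPL23A (Potri.006G213300), a docking site for targeting factors at the exit, at -0.74.

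RPL10, RPL24 and RPL40 join the particle late, in the cytoplasm, as established in yeast, and their 5 listed genes were all lower. RPL40 is made as a fusion to ubiquitin. Its match Potri.016G077200 had 264 CPM (wild type), 63.8 CPM (KD2) and 105 CPM (KD5) (log2 fold change -1.64, SE 0.16). RPL10 helps shape the site where peptide bonds form. Its match Potri.019G131900 (RPL10A) had 741, 482 and 498 CPM (-0.60, SE 0.15), and Potri.013G159600 (RPL10B) had 793, 450 and 468 CPM (-0.79, SE 0.15). The late-joining genes therefore spanned from -1.64 to -0.60, the latter being the smallest reduction of any member.

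RPL24, at the face toward the small subunit, differed between its copies in how the RNAi libraries compared. Potri.004G085300 had 236, 145 and 164 CPM, and Potri.012G139400 had 71.4, 30.9 and 51.9 CPM. The latter was at -1.20 for KD2 by itself and -0.46 for KD5. Potri.004G085300 and Potri.019G131900 stand nearest the limit of the deposited table, with an FDR of 0.0475 and 0.0472 in the authors' deposited table, followed by the mitochondrial L30 match Potri.014G157400 at 0.0424. What lies just outside that limit has no description in the files.

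The other 44 cytosolic members come from the body of the subunit, and 41 were lower. RPL23, described as L14p/L23e, sits at the face toward the small subunit. Its gene Potri.010G066400 had 1550 CPM (wild type), 735 CPM (KD2) and 805 CPM (KD5) (log2 fold change -1.01, SE 0.14), and Potri.008G171200 had 936, 416 and 462 CPM (-1.09, SE 0.15). The copy Potri.005G110800 had fewer reads and lay lower, at 175, 57.9 and 64.6 CPM (-1.52, SE 0.17). The single RPL8 match (described as L2), Potri.007G013100, which lies close to the catalytic centre, had 111, 42.4 and 43.7 CPM. RPL29, another very small protein, had 2 matches at -1.34 (Potri.010G142000) and -1.30 (Potri.008G107700). For the first of these KD2 stood at 144 CPM and KD5 at 241 CPM, against 485 CPM in wild type.

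Other body proteins, those of RPL13A, RPL27, RPL38, RPL14, RPL36 and RPL22, lay between -0.94 and -0.63. The RPL13A match, Potri.002G242600 (described as L13), had 743, 362 and 410 CPM (wild type, KD2, KD5) and a log2 fold change of -0.94. RPL27 (Potri.001G342500) and RPL38 (Potri.007G131800) both lay at -0.72, as did both copies of RPL14 (Potri.010G069900 and Potri.002G035700). RPL36, at 3 genes over 2 Arabidopsis matches, ran from -0.94 (Potri.004G057000) to -0.67 (Potri.015G145800). RPL22 had Potri.010G012700 at -0.89 and Potri.002G204100 at -0.63, and the former had 148, 80.2 and 79.3 CPM. In each gene of this paragraph both RNAi libraries lay below wild type.

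**Figure D2:**
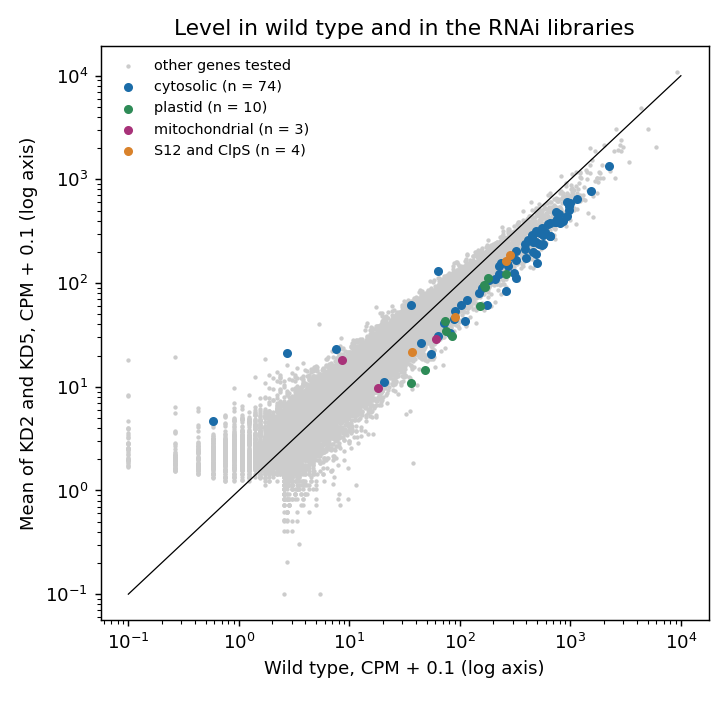
Mean CPM of KD2 and KD5 against wild type CPM for every gene tested (grey) and for the members (coloured by compartment), both on log axes with 0.1 CPM added; the line marks equal levels. The 85 lower members follow a band parallel to the line, from 17.9 CPM up to 2234 CPM in wild type, and the 6 higher members start at or below 63.1 CPM in wild type.

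Listed copies matching the same Arabidopsis locus mostly shifted by like amounts. Copies are counted here per locus, so genes of a protein with several loci, such as RPL23 and RPL36, are not grouped. The members match 52 Arabidopsis loci, and 25 of these have at least 2 listed poplar copies, 64 genes in all. In 19 of the 25, the copies' log2 fold changes spanned less than 0.3, and the median span was 0.17. Listing required a difference from wild type, so copies that did not differ are missing from these counts. All 85 lower members lay between -1.74 and -0.60, so unrelated members can also lie close together. Spans between unrelated members were not compared with those between copies. How reads were divided between near-identical copies is not known either. The 3 copies of RPL32 had nearly one value, from -0.62 (Potri.001G353900) to -0.61 (Potri.002G249000, at 926, 541 and 674 CPM). The 3 copies of RPL35A at AT1G74270 ran from -1.25 (Potri.008G063200) to -1.12 (Potri.010G199400), and the 4 copies of RPL18 from -1.07 (Potri.013G013600) to -0.85 (Potri.005G023500). The 4 copies of RPL27A, described as L18e/L15, ran from -1.23 (Potri.006G202300) to -0.88 (Potri.008G187000).

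RPL15, described as L23/L15e, had the most listed copies at a single Arabidopsis locus, with 5. Potri.002G141500 had 970 CPM (wild type), 521 CPM (KD2) and 587 CPM (KD5) (-0.81, SE 0.15). Potri.003G078700 had 80.6, 26.4 and 39.8 CPM (-1.28, SE 0.19). In both, wild type was highest and KD2 lowest. The 3 RPS12 matches, which belong to the small subunit, ran from -0.95 (Potri.003G181200) to -0.63 (Potri.005G206300).

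**Figure D3:**
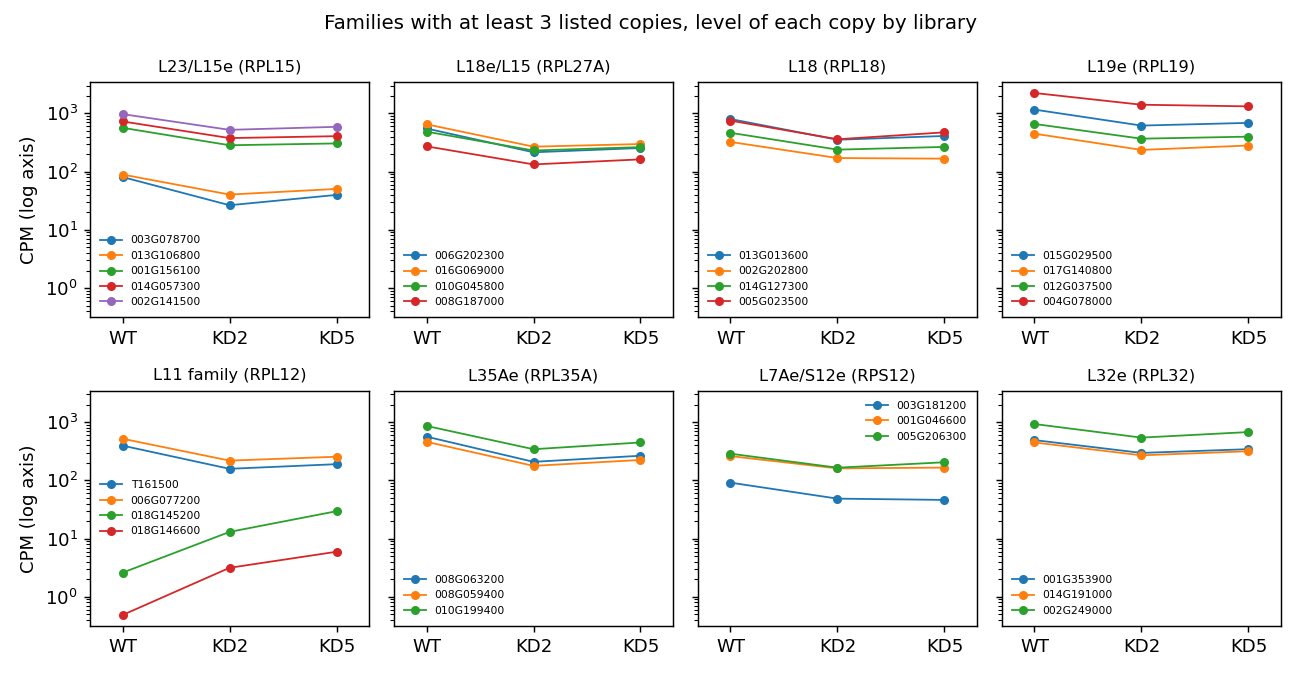
CPM on a log axis in wild type (WT), KD2 and KD5 for each copy at the 8 Arabidopsis loci with at least 3 listed copies; lines join the values of 1 copy and identifiers omit the prefix Potri. Copies shift the same way at 7 of the loci, while at the RPL12 locus 2 copies go from at most 2.60 CPM in wild type up to 29.5 CPM in KD5.

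Apart from the stalk base copies, 4 members were higher in the RNAi libraries. RPL30, described as L7Ae/L30e, contacts the small subunit, and both its listed genes were among them. Potri.007G086800 had 63.1 CPM (wild type), 126 CPM (KD2) and 138 CPM (KD5) (log2 fold change 1.07, SE 0.18). Potri.005G080700 had 35.8, 55.2 and 67.8 CPM (0.78, SE 0.20). The RPL28 match Potri.T165500 had 46 counts (wild type), 128 (KD2) and 92 (KD5), or 7.48, 26.9 and 18.9 CPM (1.61, SE 0.30). The mitochondrial L12 match Potri.007G019100 had 52, 75 and 99 counts, or 8.45, 15.7 and 20.3 CPM (1.09, SE 0.30). In each of the 4, both RNAi libraries lay above wild type. RPL7A matches, which share the L7Ae description with RPL30, stood lower, at -0.77 (Potri.004G113900) and -0.70 (Potri.004G113800).

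All 10 plastid members were lower, and their summed level was 1248 CPM (wild type), 568 CPM (KD2) and 662 CPM (KD5). The plastid L12 match, Potri.001G346100, which forms the stalk of the bacterial-type ribosome, had 264, 103 and 140 CPM (log2 fold change -1.12, SE 0.16). Of the 2 plastid L17 matches, Potri.016G143100 had 84.9, 29.4 and 32.4 CPM (-1.46, SE 0.19) and Potri.006G113500 had 153, 55.6 and 63.5 CPM (-1.36, SE 0.17). The L34 match Potri.011G064800 lay at -1.11 and L15 (Potri.008G121100) at -0.87. L5 (Potri.002G154600), L29 (Potri.007G093700) and L3 (Potri.013G070100) had smaller reductions, at -0.79, -0.75 and -0.68. The green leaf markers given above moved the same way, and their part in the plastid values was not tested.

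Both matches of the plastid L18 protein, AT1G48350, had the lowest log2 fold changes of all members, and the RNAi libraries disagreed on which copy was lower. Potri.010G005000 had 220 counts (wild type), 73 (KD2) and 30 (KD5), or 35.8, 15.3 and 6.15 CPM (-1.74, SE 0.25). Potri.010G008200 had 298, 37 and 104 counts, or 48.5, 7.77 and 21.3 CPM (-1.73, SE 0.22). The first was at -1.20 for KD2 by itself and -2.47 for KD5, and the second at -2.58 and -1.17. Their SEs do not reflect this disagreement, because the fit pools the spread over genes. Their sum hid this crossing, at 84.2 CPM (wild type), 23.1 CPM (KD2) and 27.5 CPM (KD5). Their reads may be hard to divide if the copies are near-identical, which was not tested.

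The mitochondrial L32 match Potri.010G165100 had 60.2, 26.2 and 31.97 CPM (log2 fold change -1.05, SE 0.20), and the L30 match had 110, 32 and 62 counts. With L12 higher, the 3 mitochondrial members did not share a direction. The ClpS match, Potri.010G128500, had 36.9, 19.9 and 23.2 CPM.

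Level and change were set side by side because well-covered genes tended to lie lower in the RNAi libraries. Among other genes, the median log2 fold change was 0.14 at mean levels from 1 to 16 CPM, 0.03 from 16 to 64 CPM, -0.15 from 64 to 256 CPM and -0.39 from 256 to 1024 CPM. The 5 members from 1 to 16 CPM had a median of 1.09, with 3 called higher and 2 lower. In the next 3 ranges the members had medians of -1.01 (n = 16), -0.83 (n = 29) and -0.85 (n = 39). Between 256 and 1024 CPM 45.6% of the other genes were called lower, and 39 of 39 members. The members lay below the other genes' median in each range from 16 CPM upward. Members were listed for a difference from wild type, unlike the other genes as a set, so nothing is read from this gap or from the calls. Loess normalization on abundance moved the members' median to -0.59 and the number called lower to 44.

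**Figure D4:**
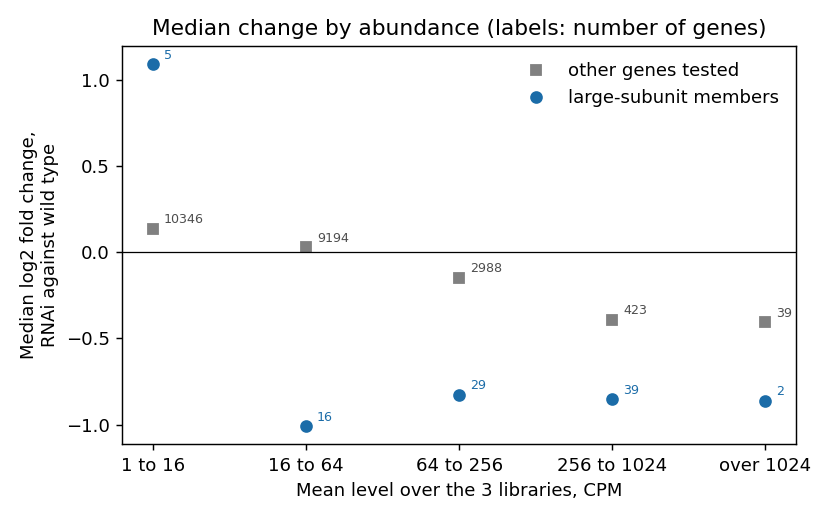
Median log2 fold change of the RNAi libraries against wild type in ranges of mean CPM, for members (blue) and the other genes tested (grey), with the number of genes beside each point. The other genes go from 0.14 at 1 to 16 CPM to -0.39 at 256 to 1024 CPM, while members have a median of 1.09 at 1 to 16 CPM and lie near -0.85 above 64 CPM.

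The ratio of KD2 to KD5 uses no wild type library and was not the contrast behind the deposited table. It has 1 library on each side and no test. KD2 lay below KD5 in 82 of 91 members, against 49.9% of all genes tested, and the median log2 ratio was -0.22, against 0.00 for all genes. Among members of at least 64 CPM, 65 of 70 had the lower value in KD2, and the other genes at that level had 52.8%. The cytosolic genes had a median of -0.24 and the plastid genes of -0.18. Other listed sets shared the shift. KD2 was below KD5 in 33 of 38 small-subunit genes not also described as elongation factors. The same held for 10 of 10 genes described as zinc-binding ribosomal proteins (median -0.36) and 20 of 27 histone genes (median -0.13). Other sets did not share it, with 5 of 10 green leaf markers and 1 of 5 epidermis genes below. KD2 and KD5 are different lines, so line and library cannot be told apart.

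The largest gaps between the RNAi libraries lay in genes with fewer reads. They included the plastid L18 and stalk base copies described above. At the other end, KD2 was higher in RPL28 (0.50), in the RPL19 gene Potri.004G078000 (0.09) and in the plastid L29 match Potri.007G093700 (0.08, at 73.0, 44.5 and 42.2 CPM). The last 2 differences are far smaller than their distances from wild type.

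**Figure D5:**
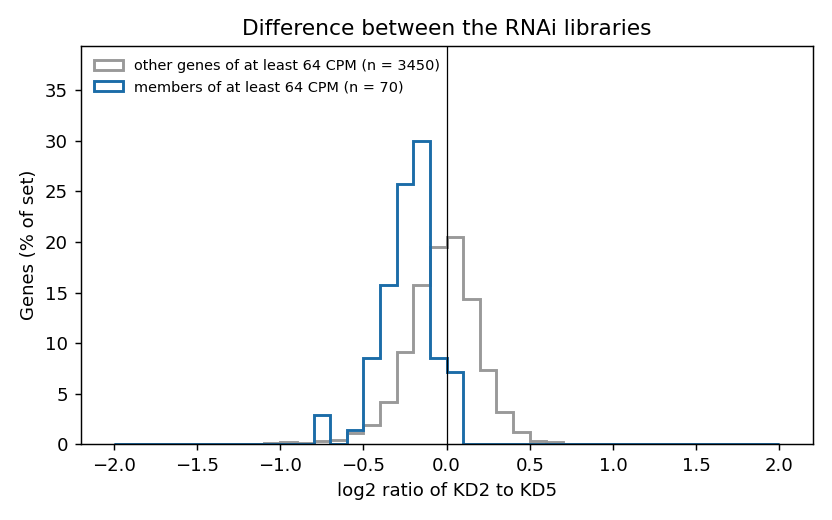
Distribution of the log2 ratio of KD2 to KD5, as percent of each set, for members (blue, n = 70) and other genes (grey, n = 3450) with a mean of at least 64 CPM. The members' distribution is centred at -0.22 and that of the other genes at -0.01.

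Other listed genes of the translation machinery gave the surroundings of these values, and they come from the same selected table. Of 43 genes whose description names a small-subunit protein, 42 were called lower and 0 higher. The descriptions of 5 of them also name an elongation factor. Without those 5, 37 of 38 small-subunit genes were called lower, their median log2 fold change being -0.92 and the median log2 ratio between KD2 and KD5 -0.23. The family described only as zinc-binding ribosomal proteins, which the name rule leaves out, had 10 of 10 called lower. It was led by Potri.010G251500 at 206, 52.1 and 80.1 CPM and Potri.003G053100 at 248, 94.9 and 119 CPM. Its description names no subunit, so the family cannot be taken as a group outside the large subunit. Elongation factors deliver transfer RNA and move the ribosome along. All 10 genes described as such were called lower, and 5 of them are the genes shared with the small-subunit list. The other 5, all with a family description of elongation factor Tu, had a median of -0.69, among them Potri.010G219500 at -1.09 and Potri.010G218700 at -0.92. Their median log2 ratio of KD2 to KD5 was -0.09.

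Of 4 initiation factors 3 were called lower and 1 higher. Potri.010G229800, the match of IF6, which keeps free 60S subunits from joining 40S too early, had 263, 150 and 143 CPM (log2 fold change -0.85), and the eIF3A match Potri.005G021400 was at -0.62. In the ribosome biogenesis list, IF6 was the 1 gene lower and 2 were called higher. Those were the match of NMD3, Potri.004G085700, an export adaptor of the 60S subunit known from yeast, at 10.6, 21.2 and 31.97 CPM (1.33), and the RimM match Potri.001G353800, which acts on the small-subunit ribosomal RNA of bacterial-type ribosomes, at 16.6, 35.5 and 28.3 CPM (0.94). Of the 60S factors named here, IF6 thus stood lower and NMD3 higher.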

How the data were processed

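RNA of apical buds was sequenced in 3 libraries. The authors deposited raw whole-number counts for 41335 genes, with FastQC, TopHat and edgeR named in the submitters' processing notes. Which versions, counting program, build and annotation were used is not given in the sources used here. Their table of 2151 genes, deposited by the authors, gives log2 fold changes and average log2 CPM, and the p-values and FDR in it are also the authors', per the file headers.

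Counts were tested with edgeR 4.0.16 (R 4.3.3): filterByExpr with a minimum count of 10 (23089 genes), TMM scaling (factors from 0.904 to 1.06) and the two-sided quasi-likelihood F-test of both RNAi libraries against wild type. With 1 residual degree of freedom, KD2 against KD5 gives the spread, and the p-values measure only the spread between these libraries. edgeR estimated infinite prior degrees of freedom, so each gene's own spread was replaced by the value pooled over genes (common dispersion 0.013), and a gene on which KD2 and KD5 disagree gets no larger SE for it. SE is that of the log2 fold change. CPM are scaled by TMM and not by gene length, which is not given in the sources used here. Shares, sums and differences in level between genes are therefore of reads, not of transcript numbers. Ratios of single libraries used a prior count of 2. DESeq2 1.42.0 and limma 3.58.1 served as alternatives.

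Members, lists and the compartment of each Arabidopsis match were chosen with earlier results of these data known. Genes named are PtaDML10, members with the most reads, and the extremes of log2 fold change and of KD2 to KD5. Also named are those nearest the deposited limit, extremes of Arabidopsis loci with at least 3 copies, and the 2 smallest adjusted p per list. Others named to describe a group (further stalk, 5S, tunnel, late-joining, body and organelle genes, the ClpS match and neighbours by identifier) were chosen after their values were seen. Leaving out genes shared by the small-subunit and elongation factor lists was also chosen after seeing the data. The list of plastid and mitochondrial ribosomal proteins by description held 1 gene, called lower. Among listed genes, secondary xylem had 1 of 1 and phloem 3 of 4 called lower. No reference was used, so no sequences, promoter motifs or names of unlisted genes were analysed here. One result is not reported here.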

Additional observations from a re-analysis of the deposited data

How the results depend on the processing

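The sign of each member's log2 fold change, 85 below 0 and 6 above, came out the same in number under every scaling, filter and test run, with a reported median of -0.85. Library size only gave a median of -0.63, while the median of all genes moved from 0.02 to 0.24, and the calls over all genes became 976 lower and 3004 higher. Loess normalization on abundance gave a median of -0.59, 44 members called lower, and 942 genes lower and 629 higher overall. Without a filter edgeR called 0 members and 0 genes in either direction, with 90 members and 5051 genes at an unadjusted p under 0.05. DESeq2 called 513 genes lower and 42 higher, with 63 members lower, 1 member higher and no adjusted p for 11 members. Requiring at least 2-fold left 28 members lower, and 455 genes lower and 469 higher overall. The cause of these shifts was not tested. KD2 alone gave a median of -0.95 and KD5 alone of -0.76, with no test. The median log2 ratio of KD2 to KD5 ran from -0.24 to -0.19 across scalings and prior counts. Of 38 named members, 13 lost their call with loess, 15 with DESeq2, 4 with size-only scaling, 1 with limma-voom and 38 without a filter. Members without an adjusted p may be among the 15 of DESeq2. The cytosolic members alone, an alternative chosen after seeing the data, gave a median of -0.84. No paired analysis was possible because wild type has 1 library. The lists that needed a reference were not run. Depth limits the stalk base copies with 3 and 16 counts in wild type most.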
